A study of Mus musculus with 6 samples.

Results

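The genes described here encode the proteins of the mitochondrial ribosome, and their accessible chromatin was followed in mouse long-term haematopoietic stem cells (LT-HSCs) squeezed under a low ceiling. All RefSeq protein-coding genes of the mm10 assembly whose symbol starts with Mrpl or Mrps followed by a digit were taken, which gave 78 genes, 49 Mrpl and 29 Mrps. A peak was assigned to a gene when its midpoint lay within 1 kb of either end of the gene. This gave 79 of the 42632 peaks, at 73 of the 78 genes. Mrpl4, Mrpl18, Mrpl24, Mrpl43 and Mrps23 had no such peak. This does not mean that no peak lay at their promoters. A peak 1428 bp from an end of Mrpl18 and one 1446 bp from an end of Mrpl24 overlapped the listed promoter of the gene. The Mrpl18 peak held 32, 5 and 4 counts in confined and 51, 157 and 134 in unconfined libraries 1 to 3. The Mrpl24 peak held 11, 2 and 1 in confined and 10, 36 and 53 in unconfined libraries. By the rule, neither is a member. Just inside the limit lay a peak 992 bp from an end of Mrpl23, with 7, 5 and 0 counts in confined and 7, 35 and 29 in unconfined libraries 1 to 3. Just outside lay one 1056 bp from an end of Mrpl36, with 6, 2 and 0 counts in confined and 4, 19 and 5 in unconfined libraries. It too overlapped the listed promoter of its gene.

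Mitochondrial ribosomes translate the few proteins encoded by mitochondrial DNA, all of them subunits of the respiratory chain or the ATP synthase. Their RNAs come from the mitochondrial genome, but every one of their proteins is encoded in the nucleus, made in the cytosol and imported. A large subunit joins amino acids and a small subunit reads the mRNA, and each holds proteins with bacterial relatives beside proteins found only in mitochondria. LT-HSCs rely comparatively little on respiration while quiescent.

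The assay was ATAC-seq, which reads out open DNA from where a transposase can cut and tag it. The LT-HSCs were lineage-negative, Sca1+ cKit+ CD34- Flt3- cells sorted from C57BL/6 mice, 10 to 16 weeks old. Confined cells (n = 3 libraries) were cultured for 13 h, left for 0.5 h to attach to glass coated with fibronectin, covered for 2 h by a coverslip on pillars of 5 µm, and recovered from the glass. Unconfined cells (n = 3) were cultured for 16 h. Only confined cells were attached and recovered, so these steps cannot be told apart from confinement. No genotype other than the strain is given, and nothing says whether a library came from 1 animal or from pooled ones, so p-values measure the spread between these libraries.

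Depth limits every value at a single peak. Counts in all peaks totalled 128257 to 340922 in confined and 304898 to 1229478 in unconfined libraries. The median member peak held 8, 5 and 3 counts in confined libraries 1 to 3, against 10, 37 and 30 in unconfined libraries 1 to 3. No count was found at 0, 2 and 7 of the 79 peaks in confined libraries 1 to 3 and at 3, 0 and 0 in unconfined libraries 1 to 3. Over all 42632 peaks, the peak-to-peak pattern of confined libraries 2 and 3 correlated with that of the unconfined libraries at r = -0.0270 to 0.05, and that of confined library 1 at r = 0.418 to 0.524. Of 8 marker genes of LT-HSCs 4 had a peak at a gene end (Kit, Procr, Hlf and Fgd5), with a mean per peak of 14.3 to 24.8 CPM (counts scaled to the total in all peaks) in confined and 16.9 to 22.4 in unconfined libraries. Of 16 markers of other marrow cells 7 had one, with 21.5 to 31.9 CPM in confined and 24.2 to 34.8 in unconfined libraries. The groups overlapped for both lists, but among single genes Cd14, a monocyte marker, and Cd79a, a B cell marker, were higher in every confined library: Cd14 had 49.9, 58.7 and 31.2 CPM in confined and 16.4, 16.3 and 9.15 in unconfined libraries, and Cd79a 32.3, 18.1 and 15.6 in confined and 6.56, 8.13 and 12.2 in unconfined libraries. The Cd79a values rest on 11, 4 and 2 counts in confined and 2, 10 and 12 in unconfined libraries. On this scale, every confined library lay above every unconfined one at 16.8% of all peaks and 6.33% of gene-end peaks. None of the other 9 markers with a peak separated the groups, and the part of these cells in the results was not tested.

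Most member peaks sat at transcription starts. RefSeq promoter entries (GRCm38.p6, the assembly also called mm10, 250 bases before to 50 after the start) matched 69 of the 78 genes and give the strand. Of the 79 peaks, 64 lay at a start, with the midpoint within 250 bp of the listed start in 56 cases, and 6 lay at the other end of the gene. The rest belonged to genes with no entry: Mrpl13, Mrpl15, Mrpl19, Mrpl38, Mrpl54, Mrps28, Mrps34 and Mrps35. Exon and intron positions were not used here. Of the 79 peaks, 39 also lay within 1 kb of an end of another protein-coding gene. Of these, 26 lay at 25 pairs of genes that run in opposite directions from neighbouring starts. Some of these pairs overlap, such as Mrpl48 and Rab6a by 727 bp and Mrpl14 and Tmem63b by 622 bp. One pair consists of mitochondrial ribosomal protein genes on both sides, Mrpl46 and Mrps11, 41 bp apart on chromosome 7, which share 1 peak. Others pair such a gene with Ndufs6 (next to Mrpl36) or Ndufb5 (next to Mrpl47), subunits of respiratory complex I, with Psma2 (Mrpl32), a proteasome subunit, with Hira (Mrpl40), a histone chaperone, with Fau (Mrpl49), which encodes a protein of the cytosolic ribosome, and with Sars2 (Mrps12), the mitochondrial seryl-tRNA synthetase. At such a peak, accessibility cannot be assigned to 1 of the genes.

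The promoters of 5 genes are shown because the results turn on them: Mrpl41 and Mrpl17 had the smallest p among the members, Mrps18b and Mrpl34 the highest unconfined level, and Mrps11 shares its start region with Mrpl46. Each runs 5′ to 3′ on the strand of the gene, and capitals mark matches to the motifs named after them.
Mrpl41 (chr2:24975049-24975348, minus strand): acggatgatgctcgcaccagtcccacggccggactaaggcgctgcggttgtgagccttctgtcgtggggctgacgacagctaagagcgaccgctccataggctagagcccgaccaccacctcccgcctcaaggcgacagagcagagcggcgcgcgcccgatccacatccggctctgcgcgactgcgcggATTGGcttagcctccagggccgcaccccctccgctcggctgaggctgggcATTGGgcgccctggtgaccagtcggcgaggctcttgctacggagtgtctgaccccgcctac
Mrpl17 (chr7:105811038-105811337, minus strand): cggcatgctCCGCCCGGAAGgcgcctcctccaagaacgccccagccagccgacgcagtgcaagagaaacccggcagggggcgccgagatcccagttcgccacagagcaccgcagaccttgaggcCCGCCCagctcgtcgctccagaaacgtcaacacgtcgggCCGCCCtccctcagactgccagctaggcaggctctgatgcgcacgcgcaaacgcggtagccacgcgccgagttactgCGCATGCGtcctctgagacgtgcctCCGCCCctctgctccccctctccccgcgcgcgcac
Mrps18b (chr17:35916391-35916690, minus strand): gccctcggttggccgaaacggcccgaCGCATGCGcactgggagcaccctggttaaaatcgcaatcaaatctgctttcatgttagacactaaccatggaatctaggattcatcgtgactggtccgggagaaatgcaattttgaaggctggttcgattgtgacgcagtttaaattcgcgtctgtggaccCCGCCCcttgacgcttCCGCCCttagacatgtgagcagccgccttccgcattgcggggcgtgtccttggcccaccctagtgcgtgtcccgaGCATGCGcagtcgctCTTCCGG
Mrpl34 (chr8:71464676-71464975, plus strand): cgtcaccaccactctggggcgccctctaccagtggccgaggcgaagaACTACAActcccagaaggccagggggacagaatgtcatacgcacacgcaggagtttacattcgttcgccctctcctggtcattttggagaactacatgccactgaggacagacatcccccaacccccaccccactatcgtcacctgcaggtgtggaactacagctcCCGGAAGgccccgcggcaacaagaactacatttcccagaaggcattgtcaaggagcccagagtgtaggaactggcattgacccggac
Mrps11 (chr7:78782881-78783180, plus strand): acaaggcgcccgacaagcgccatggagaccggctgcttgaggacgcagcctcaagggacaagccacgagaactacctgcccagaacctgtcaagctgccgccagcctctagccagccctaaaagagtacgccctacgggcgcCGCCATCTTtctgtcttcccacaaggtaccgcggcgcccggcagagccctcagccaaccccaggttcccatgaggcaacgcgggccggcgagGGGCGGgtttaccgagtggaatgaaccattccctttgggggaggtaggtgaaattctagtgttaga

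The motifs were searched on both strands, and a gene was counted when at least 1 of its promoter entries held the motif, since some genes have several entries. The ETS core CCGGAAG was found in 37.7% of the 69 member genes with an entry and in 12.9% of all protein-coding genes with one. The YY1 motif AANATGGCG was in 15.9% of member and 3.64% of all genes, the NRF1 core GCATGCG in 11.6% and 4.96%, the ZNF143 motif ACTACAA in 7.25% and 4.19%, and the CRE core TGACGTC in 5.80% and 4.35%. The SP/KLF motif GGGCGG was in 49.3% of member and 49.2% of all genes, CCAAT in 39.1% and 42.3%, and the E-box CACGTG in 7.25% and 8.91%. A match is a description of the sequence only. The Mrpl17 promoter held 4 SP/KLF matches, 1 of them overlapping an ETS match, and an NRF1 match on both strands 3 to 10 bases before the start. Mrps18b held NRF1, SP/KLF and ETS matches, Mrps11 a YY1 and an SP/KLF match, Mrpl34 a ZNF143 and an ETS match, and Mrpl41 2 CCAAT matches.

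In unconfined cells the members were about as open as other gene ends, which were more open than the average peak. All peaks are 700 bp wide, so levels can be compared between genes. Scaled CPM are counts relative to a library size over tested peaks corrected by TMM, which sets the typical tested peak equal between libraries, and each is a level. The mean unconfined level ran from 18.9 scaled CPM at the other end of Mrps21 to 267 at the start of Mrps18b, a range of 14.1-fold, with a median of 70.3. Of the 79 peaks, 63 lay above the median of all peaks and 22 among the highest 10%. The mean per peak in unconfined cells was 82.1 ± 3.35 scaled CPM over the members, 77.2 ± 2.56 over gene-end peaks, 78.2 ± 3.96 over the other genes of mitochondrial gene expression described below and 49.99 ± 4.17 over all peaks (SD, n = 3). The peaks at the start of Mrps18b, Mrpl34 and Mrpl47 led this order and do not differ beyond their spread in unconfined cells, with 267 ± 5.81, 246 ± 39.9 and 228 ± 39.9 scaled CPM (SD, n = 3).

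The members' share of all peak counts was smaller in confined cells. Confined libraries 1 to 3 gave 0.209% (0.194 to 0.225, 95% intervals by Clopper-Pearson throughout), 0.169% (0.152 to 0.187) and 0.196% (0.173 to 0.222), against 0.321% (0.301 to 0.342), 0.287% (0.277 to 0.296) and 0.308% (0.297 to 0.319) in unconfined libraries 1 to 3. These intervals cover counting error only. The groups did not overlap, and the means were 0.192% ± 0.0207 in confined and 0.305% ± 0.0172 in unconfined cells (SD, n = 3 each), a difference of -0.114 percentage points. All 3 same-numbered pairs, which share an experimental batch, gave it, with -0.111, -0.118 and -0.111 points. A member peak thus held on average 1.03 ± 0.112 times the counts of an average peak in confined cells and 1.65 ± 0.0931 times in unconfined cells. The fall was not particular to the members. Over all gene-end peaks this value was 0.994 ± 0.154 in confined and 1.55 ± 0.0850 in unconfined cells. Over the other genes of mitochondrial gene expression it was 1.03 ± 0.191 and 1.57 ± 0.0561. Gene-end peaks held 26.3% ± 4.06 of all peak counts in confined and 40.9% ± 2.25 in unconfined cells.

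Within the counts at gene ends, the members kept about the same part. They took 0.676%, 0.706% and 0.819% of the counts in the 11273 peaks within 1 kb of a protein-coding gene end in confined libraries 1 to 3, against 0.779%, 0.743% and 0.715% in unconfined libraries 1 to 3. The groups overlapped, with means of 0.734% ± 0.0756 in confined and 0.746% ± 0.0320 in unconfined cells (SD, n = 3 each). The difference was -0.0119 points, and its sign was not the same in the 3 pairs (-0.103, -0.0367 and 0.104).

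**Figure D1:**
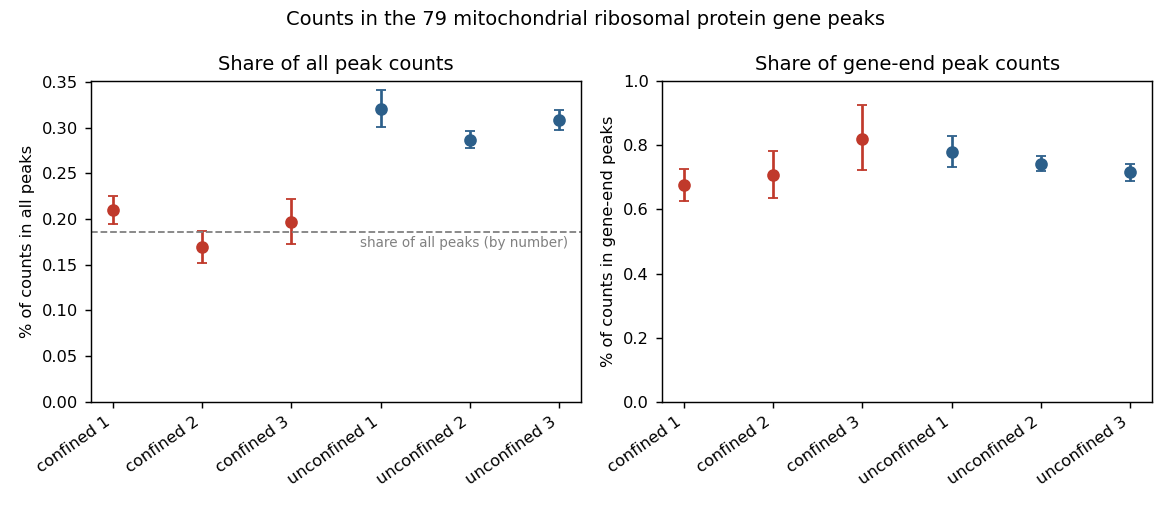
Share of counts in the 79 mitochondrial ribosomal protein gene peaks, in percent of all peak counts (left) and in percent of the counts in gene-end peaks (right), per library; bars are 95% Clopper-Pearson intervals, and the dashed line is the members' share of all peaks by number, 0.185%. On the left the confined libraries lie at 0.169% to 0.209% and the unconfined at 0.287% to 0.321%; on the right the groups overlap.

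The order of the members was carried into confined library 1 and hardly into the other confined libraries. For each library, the 20 highest and 20 lowest members were chosen from the unconfined libraries of the other 2 batches. The high members held 2.58, 1.36 and 1.03 times the counts of the low ones in confined libraries 1 to 3, and 7.28, 3.57 and 5.41 times in unconfined libraries 1 to 3. The means were 1.66 ± 0.814 in confined and 5.42 ± 1.85 in unconfined libraries (SD, n = 3 each), and the groups did not overlap. The order was taken from unconfined libraries alone, which favours higher ratios in unconfined libraries, so this gap is no test of a difference. No such ratio was computed for other peaks. Across the 79 peaks, log2(CPM + 1) over all peak counts gave r = 0.755 to 0.887 between unconfined libraries. Against these, confined library 1 had r of 0.544 to 0.644, confined library 2 of 0.187 to 0.290 and confined library 3 of -0.0523 to -0.0172. Over all peaks r fell as well. It was 0.676 to 0.824 between unconfined libraries. Against these it was 0.418 to 0.524 for confined library 1 and -0.0270 to 0.05 for confined libraries 2 and 3. The confined libraries hardly correlated with each other either. Between them r was -0.00557 to 0.238 over the 79 peaks and 0.0194 to 0.0856 over all peaks, so no shared confined order is shown. The points share their libraries and depth, and r is a description.

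**Figure D2:**
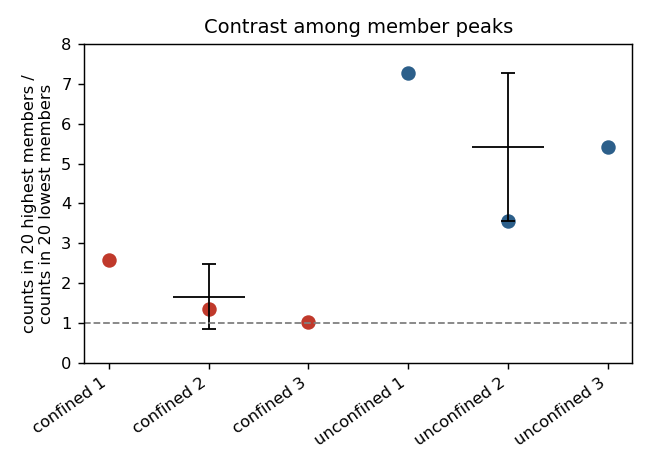
Counts in the 20 members highest in other unconfined libraries divided by counts in the 20 lowest, per library; the horizontal marks with bars are group means ± SD (n = 3), and the dashed line is a ratio of 1. Confined libraries lie at 1.03 to 2.58 and unconfined libraries at 3.57 to 7.28.

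**Figure D3:**
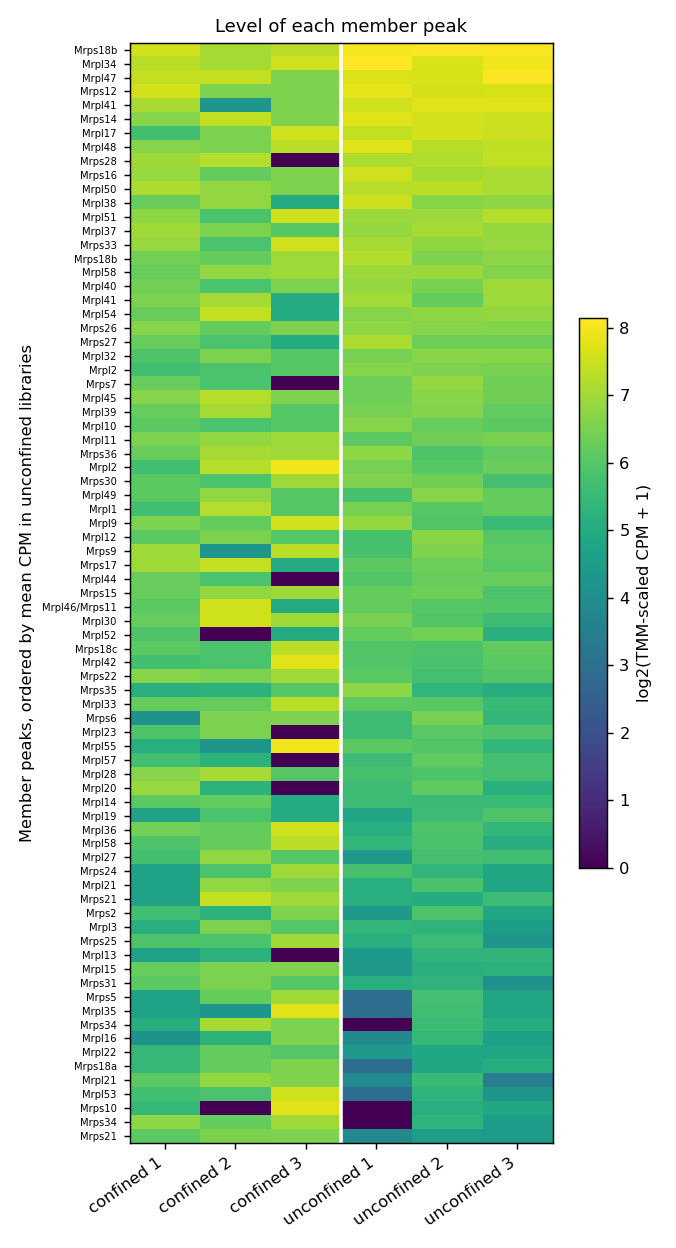
Level of each of the 79 member peaks, as log2(scaled CPM + 1), in the 3 confined and 3 unconfined libraries, ordered from the highest to the lowest unconfined mean. The gradient from top to bottom in the unconfined columns is weaker in confined library 1 and hard to see in confined libraries 2 and 3, where the darkest cells are counts of 0.

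No member peak passed the test between the groups. Of the 79 peaks 39 passed the filter on low counts, and of these 0 were lower, against 220 of all 9084 tested peaks (2.42%), and 0 higher, against 526 (5.79%), by edgeR's quasi-likelihood test at an adjusted p under 0.05. Of the tested gene-end peaks, 3.77% were lower and 1.08% higher. At an unadjusted p under 0.05, 3 of the 39 were lower, against 11.8% of all tested peaks, and 1 was higher, against 13.3%. DESeq2 called 0 members as well, against 0.826% of all tested peaks lower and 4.93% higher. The median log2 fold change of the 39 was -0.25, with 26 below 0 and 13 above, against a median of -0.02 over all tested peaks and -0.26 over the 4636 tested gene-end peaks. Of the 39, 30 reached the filter's limit of 31.0 CPM in all 3 unconfined libraries and 2 in all 3 confined ones, and 18 reached it in all unconfined and at most 1 confined library. The peaks called lower over the whole table had log2 fold changes of -1.10 or beyond, a size that only 2 members reached.

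The calls depend on the scaling and on the filter. When library totals were the sole scaling, the median of all tested peaks was -0.68 in place of -0.02, and that of the members -0.92, as over the tested gene-end peaks. This fit called 15 of the 39 members lower, against 25.2% of all and 35.4% of gene-end peaks tested, and 0 higher, against 3.83% and 0.518%. With no filter, 7 of the 79 members were lower, against 4.27% of all peaks and 11.7% of gene-end peaks, and 0 higher, against 1.47% and 0.293%. These 7 were the start peaks of Mrpl41, Mrpl17, Mrpl2, Mrps7, Mrps14 and Mrpl48 and the peak at an end of Mrpl38, and none was lower when the replicate number was added as a block (0.31% of all peaks were, and 0.197% were higher). The filtered fit with the block called 0 members, against 0.815% of all tested peaks lower and 5.24% higher. With DESeq2 size factors in edgeR 1 member was lower, against 2.69%, and 0 higher, against 5.72%. With a filter on mean log2 CPM, 2 were lower, against 3.21%, and 0 higher, against 5.66%. With no filter and library totals as the scaling, 2 members were lower (Mrpl41 and Mrpl17), against 2.67% of all peaks, and 0 higher, against 2.28%.

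The members' groups can also be compared with no test. On the scale of all peak counts, every confined library lay below every unconfined one at 34 of the 79 peaks, against 13.2% of all peaks and 31.4% of gene-end peaks, and above at 5, against 16.8% and 6.33%. On the TMM scale these counts were 11 below, against 4.33% of all and 11.8% of gene-end peaks, and 15 above, against 37.2% and 19.7%. The sum over the 79 peaks gave log2 ratios of confined over unconfined of -0.62, -0.76 and -0.65 in pairs 1 to 3 on the scale of all peak counts, and -0.14, 0.05 and 0.36 on the TMM scale. Pair 1 was thus below 0 on both scales, and pairs 2 and 3 turned above 0 on the TMM scale. On that scale the sums over all gene-end peaks gave 0.06, 0.13 and 0.16, and those over all peaks 0.47, 0.82 and 1.01. On the scale of all peak counts the sums over all gene-end peaks gave -0.41, -0.69 and -0.84.

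The peak at the start of Mrpl41, a large-subunit protein found only in mitochondria, had the smallest p among the members. The peak lies on chromosome 2 from 24974887 to 24975586, within 1 kb of Pnpla7 as well, and its promoter is the first of those printed above. It held 16, 1 and 3 counts in confined libraries 1 to 3 and 28, 113 and 108 in unconfined libraries 1 to 3, or 133, 18.6 and 94.3 scaled CPM in confined and 188, 215 and 221 in unconfined libraries. All confined libraries lay below all unconfined ones, with confined library 1 closest. The means were 82.1 ± 58.4 scaled CPM in confined and 208 ± 17.2 in unconfined cells (SD, n = 3 each), with a log2 fold change of -1.14 (SE 0.38, edgeR adjusted p = 0.0524). The peak passed with DESeq2 size factors in edgeR (edgeR adjusted p = 0.0492), with no filter, with a filter on the mean, with library totals as the scaling, and without unconfined library 1 or 2 or confined library 1 or 3. Without confined library 1 the log2 fold change was -2.29, and without confined library 2 -0.99. It did not pass with the replicate block (edgeR adjusted p = 0.114) or in DESeq2 (DESeq2 adjusted p = 0.149). A second Mrpl41 peak, 906 bp before the start, held 11, 7 and 1 counts in confined and 19, 39 and 60 in unconfined libraries, and the groups overlapped on the scaled CPM (edgeR log2 fold change -0.15 with an SE of 0.40, adjusted p = 0.858).

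At the start of Mrpl17, the relative of bacterial L17, the peak on chromosome 7 from 105810733 to 105811432 lay at no other gene end. It held 6, 5 and 6 counts in confined and 25, 104 and 87 in unconfined libraries, or 50.02, 92.8 and 189 scaled CPM in confined and 168, 198 and 178 in unconfined libraries. Confined libraries 1 and 2 lay below all unconfined ones and confined library 3 among them. The means were 111 ± 71.0 scaled CPM in confined and 181 ± 15.02 in unconfined cells (SD, n = 3 each). The log2 fold change was -1.12 (SE 0.39, edgeR adjusted p = 0.0601). It passed with no filter, with a filter on the mean, with library totals as the scaling, without unconfined library 1 (edgeR adjusted p = 0.0267) or without confined library 3 (edgeR adjusted p = 0.00818). The log2 fold change ranged from -1.70 without confined library 3 to -0.64 without confined library 1.

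The 10 member peaks highest in unconfined cells were picked by that level, which favours a lower value in confined cells. They are those of Mrpl41 (at the start) and Mrpl17 above, and of Mrps18b (at the start), Mrps12, Mrps14, Mrps28, Mrps16, Mrpl34, Mrpl47 and Mrpl48 below. Among the small-subunit genes, the peak at the start of Mrps18b, 1 of the relatives of bacterial S18, was the highest member in unconfined cells and level with Mrpl34 in confined cells. It held 23, 7 and 5 counts in confined and 39, 144 and 130 in unconfined libraries, with 160 ± 30.9 scaled CPM in confined and 267 ± 5.81 in unconfined cells (SD, n = 3 each). The groups did not overlap, and the log2 fold change was -0.67 (SE 0.34, edgeR adjusted p = 0.219), and -1.20 without unconfined library 1. Its neighbour there, Ppp1r10, starts 71 bp away in the opposite direction. The peak at the other end of Mrps18b, near Atat1, held 10, 4 and 4 counts in confined and 22, 50 and 52 in unconfined libraries (edgeR log2 fold change -0.30 with an SE of 0.39, adjusted p = 0.676).

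The start of Mrps12, whose protein belongs to the decoding centre, held 23, 5 and 3 counts in confined and 34, 102 and 99 in unconfined libraries, in a peak shared with Sars2. All confined scaled CPM (192, 92.8 and 94.3) lay below the unconfined ones (229, 194 and 202), confined library 1 by little (edgeR log2 fold change -0.46 with an SE of 0.34, adjusted p = 0.409, and -1.25 without confined library 1). The start of Mrps14, relative of bacterial S14, held 12, 9 and 3 counts in confined and 32, 101 and 90 in unconfined libraries, again without overlap in scaled CPM (edgeR log2 fold change -0.71 with an SE of 0.35, adjusted p = 0.189). The peak at an end of Mrps28 held 15, 8 and 0 counts in confined and 21, 78 and 83 in unconfined libraries. The count of 0 allows up to 94.3 scaled CPM (3 counts) in confined library 3, and the groups overlapped (edgeR log2 fold change -0.49 with an SE of 0.37, adjusted p = 0.432). The start of Mrps16, in a peak shared with Cfap70, held 14, 4 and 3 counts in confined and 28, 70 and 67 in unconfined libraries. The groups did not overlap in scaled CPM (edgeR log2 fold change -0.50 with an SE of 0.36, adjusted p = 0.397).

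Among the large-subunit genes with high peaks, Mrpl34, relative of bacterial L34, held 19, 7 and 6 counts in confined and 42, 107 and 123 in unconfined libraries at its start, next to Abhd8. No confined library reached the lowest unconfined one in scaled CPM (159 ± 29.3 in confined and 246 ± 39.9 in unconfined cells, SD, n = 3 each, edgeR log2 fold change -0.61 with an SE of 0.34, adjusted p = 0.260). The peak of Mrpl47, relative of bacterial L29, is shared with Ndufb5. It held 20, 9 and 3 counts in confined and 31, 106 and 134 in unconfined libraries, likewise without overlap in scaled CPM (edgeR log2 fold change -0.58 with an SE of 0.34, adjusted p = 0.286). The peak of Mrpl48, found only in mitochondria, is shared with Rab6a, a gene that overlaps Mrpl48. This peak held 12, 5 and 5 counts in confined and 32, 81 and 80 in unconfined libraries. Confined library 3 fell among the unconfined ones (edgeR log2 fold change -0.65 with an SE of 0.36, adjusted p = 0.249).

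Of the 13 tested members with a log2 fold change above 0, Mrpl30 had the smallest p. Its start peak, shared with Mitd1, whose gene lies 27 bp away, held 9, 10 and 4 counts in confined and 13, 32 and 23 in unconfined libraries, and the groups overlapped in scaled CPM (75.03, 186 and 126 in confined, 87.4, 60.8 and 47.0 in unconfined libraries; edgeR log2 fold change 0.94 with an SE of 0.45, adjusted p = 0.185). Mrps22, found only in mitochondria, held 12, 5 and 4 counts in confined and 10, 28 and 30 in unconfined libraries; here every confined library lay above every unconfined one in scaled CPM (edgeR log2 fold change 0.79 with an SE of 0.45, adjusted p = 0.271). Mrps17, relative of bacterial S17, held 15, 9 and 1 counts in confined and 10, 42 and 32 in unconfined libraries, with confined library 3 below and the others above all unconfined ones in scaled CPM (edgeR log2 fold change 0.75 with an SE of 0.39, adjusted p = 0.228). Mrpl9, relative of bacterial L9, held 11, 4 and 6 counts in confined and 17, 32 and 22 in unconfined libraries, and the groups overlapped (edgeR log2 fold change 0.70 with an SE of 0.47, adjusted p = 0.360). With no filter on low counts, which also changes the scaling, the values were -0.12 at Mrps17, -0.075 at Mrps22 and -0.18 at Mrpl9, so their direction flips, and 0.06 at Mrpl30.

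**Figure D4:**
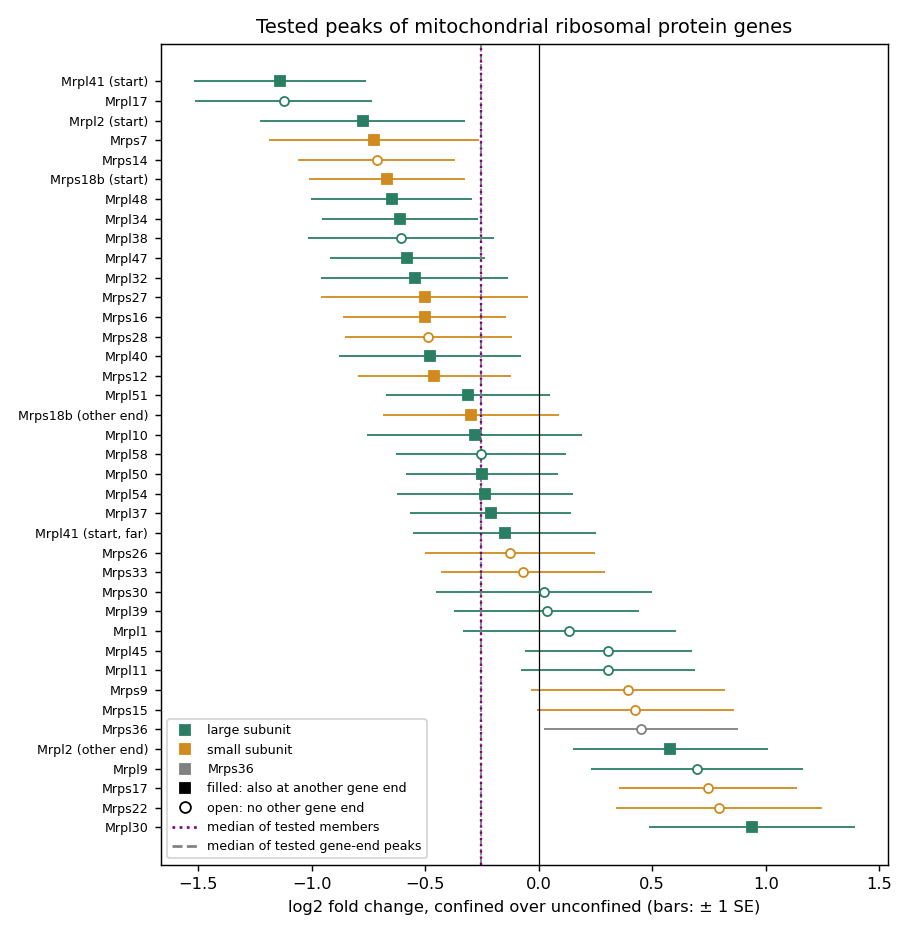
Log2 fold change, confined over unconfined, of the 39 tested member peaks with ± 1 SE, coloured by subunit; filled squares are peaks also at another protein-coding gene end and open circles are peaks at no other. The dotted median of the members, -0.25, and the dashed median of the tested gene-end peaks, -0.26, nearly coincide, and the filled squares lie mostly to the left of 0.

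Genes with 2 peaks allow the start to be set beside the other end. Mrpl2 is the relative of bacterial L2, which lies near the peptidyl transferase centre. Its start peak, shared with Klc4, held 6, 3 and 2 counts in confined and 15, 48 and 44 in unconfined libraries. The groups did not overlap there in scaled CPM (edgeR log2 fold change -0.78 with an SE of 0.45, adjusted p = 0.280). The peak at its other end, near Cul7, held 6, 8 and 8 counts in confined and 13, 34 and 38 in unconfined libraries, and the groups overlapped (edgeR log2 fold change 0.58 with an SE of 0.43, adjusted p = 0.418, and -0.079 with library totals as the scaling). The difference between these ends was not tested. At Mrpl58, a peptidyl-tRNA hydrolase that rescues stalled mitochondrial ribosomes, the other end held more counts than the start in every library except confined library 3: 9, 6 and 4 counts in confined and 18, 63 and 48 in unconfined libraries at the other end, and 7, 4 and 5 in confined and 6, 29 and 16 in unconfined libraries at the start, which was not tested.

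The peaks of Mrpl21, Mrps21 and Mrps34 did not pass the filter. Mrpl21 held 3, 6 and 3 counts in confined and 5, 29 and 13 in unconfined libraries at its start, in a peak shared with Ighmbp2. At its other end it held 8, 6 and 3 in confined and 2, 23 and 5 in unconfined libraries. Mrps21 held 3, 9 and 4 counts in confined and 5, 17 and 23 in unconfined libraries at its start, and 8, 5 and 3 in confined and 2, 12 and 10 in unconfined libraries at its other end. At Mrps34 the peaks, shared with Eme2 and with Nme3, held 4, 7 and 3 and 13, 4 and 4 counts in confined libraries. In unconfined libraries they held 0, 25 and 16 and 0, 20 and 11. The start peaks with the fewest counts over all libraries were those of Mrpl16, Mrps18a, Mrps10 and Mrpl53, with 0 to 7 counts in confined and 0 to 22 in unconfined libraries, too few for a comparison.

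The 24 tested peaks of 47 large-subunit genes, among them Mrps18a and Mrps30, whose proteins sit in the large subunit, had a median log2 fold change of -0.25, with 16 below 0. The 14 tested peaks of 25 small-subunit genes had a median of -0.38, with 10 below 0. Mrps36, now known as a subunit of the 2-oxoglutarate dehydrogenase complex, was set apart (0.45, SE 0.43). Genes with a bacterial relative had a median of -0.46 over 21 tested peaks, and those found only in mitochondria -0.24 over 17. With no filter both orders were the other way round, with -0.81 over 51 large-subunit and -0.43 over 28 small-subunit peaks, and with -0.43 over 48 peaks of genes with a bacterial relative and -1.05 over 30 of the others.

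Peaks shared with another gene and peaks at no other gene end differed in their values. The 21 tested shared peaks had a median log2 fold change of -0.48, with 19 below 0 (90.5%), and the 18 tested unshared ones 0.08, with 7 below 0 (38.9%). Among all tested gene-end peaks, 70.0% of the 927 at 2 or more protein-coding genes were below 0 (median -0.29), and 66.3% of the 3709 at 1 gene (median -0.25). Shared members were also more open in unconfined cells, with a mean of 89.0 ± 5.05 scaled CPM per peak in confined and 97.2 ± 1.27 in unconfined cells, against 86.7 ± 20.5 in confined and 67.4 ± 5.56 in unconfined cells at unshared members (SD, n = 3 each). The part of this level in the difference was not tested. With library totals as the scaling the medians were -1.17 for shared and -0.57 for unshared peaks, so the unshared value turned negative and stayed above the shared one. With no filter, 33 of all 39 shared peaks were below 0, with a median of -1.12, and so were 30 of all 40 unshared ones, with a median of -0.45.

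Start peaks of genes with an SP/KLF motif in any promoter entry were more open in unconfined cells than those without. They had 91.6 ± 12.3 scaled CPM per peak in confined and 99.7 ± 3.29 in unconfined cells over 31 peaks. Those without had 87.3 ± 15.1 in confined and 73.2 ± 4.77 in unconfined cells over 33 peaks (SD, n = 3 each). The tested peaks had median log2 fold changes of -0.39 with the motif and -0.15 without. With and without the ETS core the medians were -0.50 over 11 tested peaks and -0.06 over 22. Start peaks with the ETS core were also more open in unconfined cells, with 101 ± 4.95 scaled CPM against 78.1 ± 5.05 without. In confined cells the levels were 95.2 ± 21.5 with and 86.4 ± 10.8 without. The medians were -0.14 over 16 with CCAAT and -0.48 over 17 without, and -0.21 over 3 with the YY1 motif and -0.27 over 30 without. For these motifs the unconfined levels went the other way. They were 81.7 ± 4.28 scaled CPM with CCAAT and 89.2 ± 3.55 without, and 58.4 ± 5.05 with the YY1 motif and 91.3 ± 3.61 without. The part of these levels in the medians was not tested. The other motifs were not looked at in this way. A motif was counted by gene, so it can lie outside the peak. The only ETS match of Mrpl48 lies in an entry from 100583081, and its peak starts at 100607171. These are descriptions of small groups.

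Other genes of mitochondrial gene expression were read from a list of 70 genes, among them ribosomal proteins with other symbols (such as Dap3 and Ptcd3), aminoacyl-tRNA synthetases, translation factors, ribosome assembly factors and the mitochondrial transcription machinery. Of these genes 65 had a peak, 69 peaks in all, 1 of which is the shared Mrps12 and Sars2 peak. Of the 32 tested, 1 was higher and 0 lower in confined cells, against 5.79% and 2.42% of all tested peaks, and the median log2 fold change was -0.02. The peak that rose lay at Rpusd3, of a family of RNA pseudouridine synthases, with 20, 11 and 6 counts in confined and 9, 58 and 39 in unconfined libraries, and 187 ± 18.9 scaled CPM in confined and 83.4 ± 25.04 in unconfined cells (SD, n = 3 each, edgeR log2 fold change 1.00 with an SE of 0.33, adjusted p = 0.0478). No peak of the list was called higher in any other setting run except DESeq2 size factors, the replicate block included, and with no filter the value at Rpusd3 was 0.18. The list had 7 lower calls among 32 tested with library totals as the scaling (median -0.69) and 7 among 69 with no filter (median -0.61), 2 with the filter on the mean, 1 with DESeq2 size factors, 0 with the replicate block or in DESeq2, and 0 to 3 with single libraries left out. At Mtrf1l, a mitochondrial release factor gene with 2 peaks, the one farther from the gene end held 22, 9 and 1 counts in confined and 58, 169 and 162 in unconfined libraries (edgeR log2 fold change -1.16 with an SE of 0.39, adjusted p = 0.0556), and at Ears2, the mitochondrial glutamyl-tRNA synthetase gene, 10, 2 and 2 in confined and 28, 70 and 80 in unconfined libraries (edgeR log2 fold change -1.19 with an SE of 0.40, adjusted p = 0.0530). Both were chosen after their values were seen, as the next smallest p of the list.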

How the data were processed

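Raw counts for 6 ATAC-seq libraries in peaks of 700 bp were deposited by the authors in a single table. The submitters' processing notes name featureCounts, SAMtools 1.14, R 4.2.0 and mm10. How reads were aligned, deduplicated and shifted, and which libraries gave the peaks, is not given in the sources used here. Peaks taken mostly from unconfined libraries would favour sites open in those cells. Genes, promoters and strands came from RefSeq tables of GRCm38.p6.

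All peaks were fitted together in edgeR 4.0.16 under R 4.3.3 (filterByExpr, TMM, a glmQLFit model with the group alone, glmQLFTest, two-sided), with Benjamini-Hochberg adjustment over the 9084 tested peaks and a threshold of 0.05; the SE is the log2 fold change over the root of the F statistic. DESeq2 1.42.0 was an alternative test. The code was run on simulated data, where falls were called less often than rises of the same size. Intervals came from SciPy 1.17.1 under Python 3.11.15. Members, lists and tests were chosen with earlier results of these data known. Named member peaks were the 10 highest in unconfined cells, the 5 lowest p-values on each side of 0, the 4 start peaks with the fewest counts and those of genes with 2 peaks; a few others are named where a count holds them. Settings that combine no filter with total-count scaling or with the block, the counts of groups that do not overlap, the motifs and the division by shared gene ends were chosen after seeing the data. No test is given for values over the members.

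Same-numbered libraries share an experimental batch, per the labels, which is where the pairing comes from; over tested peaks, r between their deviations around the group mean was -0.00122, 0.0122 and -0.0640, so the data do not show it.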

Additional observations from a re-analysis of the deposited data

How the results depend on the processing

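The counts at single peaks are low in confined libraries 2 and 3, and that limits every comparison of a single member. The members called lower numbered 0 as reported. With total counts as the only scaling they numbered 15, where 25.2% of all and 35.4% of gene-end peaks tested were called lower. With no filter they numbered 7 (4.27% of all and 11.7% of gene-end peaks). There was 1 with DESeq2 size factors (2.69% of all tested peaks). A filter on mean log2 CPM gave 2 (3.21%), and no filter with total counts gave 2 (2.67%). Leaving out single libraries gave 0 to 2, with 2 of 50 without unconfined library 1 (Mrpl41 and Mrpl17, against 4.79% of all tested peaks), 1 of 42 without unconfined library 2 (Mrpl41, 2.43%), 1 of 45 without confined library 1 (Mrpl41, 7.42%) and 2 of 48 without confined library 3 (Mrpl41 and Mrpl17, 4.31%). No setting run called a member higher. With the replicate block, 0 members were called. The cause of these differences was not tested. With no filter 79 members were tested in place of 39, but the 7 called were all among those 39. Leaving out the filter also changes the scaling, and the log2 fold changes of these 7 were lower there. At the start of Mrpl2 it was -1.64 in place of -0.78.

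The members' median log2 fold change was -0.25 as reported, -0.92 with total counts, -0.58 with no filter and -0.68 with no filter and the replicate block. It was -0.80 with confined library 1 standing alone for its group (77 members tested, spread from the unconfined libraries alone). It ranged from -0.65 to -0.33 with single libraries left out, and was negative in every setting run. Over gene-end peaks the median was nearly the same, with -0.26 as reported, -0.92 with total counts and -0.58 with no filter. Over all tested peaks, 220 lower and 526 higher calls became 2286 and 348 with total counts, 1821 lower with no filter, 75 lower in DESeq2, 74 lower with the replicate block and 7 and 3 with confined library 1 alone; leaving out single libraries gave 76 to 788 lower and 250 to 1696 higher.

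Of 19 named peaks tested, the 14 below 0 stayed below 0 without each single library, and 4 of the others stayed above 0. Most of these peaks were chosen from the same data by p or by unconfined level. That choice favours a kept sign, so this is a description and no test. Values turned negative at Mrpl30 (-0.27) and Mrpl9 (-0.071) with confined library 1 alone, at Mrps17 (-0.12), Mrps22 (-0.075) and Mrpl9 (-0.18) with no filter, and at the other end of Mrpl2 with total counts (-0.079), no filter (-0.28), confined library 1 alone (-1.17) and without confined library 3 (-0.025; single libraries left out gave up to 1.22). The fall in the members' share of counts was -0.101 to -0.103 points with starts only or a 500 bp window and -0.123 to -0.102 points with single libraries left out.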
